A study of Homo sapiens with 4 samples.

Results

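The 36 aminoacyl-tRNA synthetase genes described here were listed by name, 20 for cytosolic enzymes (symbols without a number, such as AARS) and 16 for mitochondrial enzymes (symbols ending in 2, such as AARS2). All 36 had a row among the 57820 gene rows of the deposited count tables, and all 36 were among the 16468 genes with enough counts to be tested. RNA was sequenced from SY5Y cells, a neuroblastoma (NB) line with wild type MYCN, 12 h after treatment with SGSS05-NS or with its solvent DMSO, in 2 libraries of each. SGSS05-NS is a covalent inhibitor of SETD8, the methyltransferase that places a single methyl group on lysine 20 of histone H4 and on p53. The labels give a dose of 3 μM, as does a figure legend of the study, whereas its methods give a lower dose for these cells. The study writes the compound as SGSS05-NS3. Its discussion also lists SGSS05-NS by name in a series of related compounds. The names are taken here as those of 1 compound, which could not be checked. Compounds of the series, per the study, also inhibited other methyltransferases at low micromolar levels. The methods call the replicates independent biological ones. All 4 libraries are from 1 cell line, so every difference below is one between cultures of that line. Symbols are those of GENCODE release 19, and newer releases add a 1 to most cytosolic names (AARS1, GARS1, TARS1).

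Aminoacyl-tRNA synthetases join each amino acid to its matching transfer RNA (tRNA), which then brings it to the ribosome. Cells keep separate enzymes for the cytosol and for the mitochondrion, all of them encoded in the nucleus, and a few genes, among them GARS and KARS, serve both compartments. When uncharged tRNA accumulates, the kinase GCN2 phosphorylates the initiation factor eIF2alpha and the transcription factor ATF4 is then translated. Many cytosolic synthetase genes are textbook ATF4 targets, and the mitochondrial ones are seldom named among them.

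Counts assigned to genes ranged from 21463105 to 25350204 fragments per library. With DMSO, 12.3% to 12.4% of fragments lay outside annotated exons and with SGSS05-NS 15.3% to 16.1%, and the part of this difference in the values below was not tested. Of 9 NB markers, 8 were expressed and TH had at most 2 fragments in a library. The summed level of the 9 was 4056 and 4391 CPM with DMSO and 2495 and 2461 CPM with SGSS05-NS, where CPM are the counts scaled to a common library size. Of the 8 tested, 6 fell at an adjusted p under 0.001 (edgeR's quasi-likelihood test), where 8.14% of all genes tested fell. Among the 6 were CHGA (log2 fold change -1.37) and PHOX2A (-0.65). Of 11 markers of immune, epithelial, mesenchymal, endothelial and liver cells, 10 had a row, of which 3 or 4 were at 0 in each library. PDGFRA, a growth factor receptor of mesenchymal cells, had 1567 to 4040 fragments and fell (log2 fold change -1.10). The other 9 had at most 84 fragments in any library, and together they summed to 3.99 and 4.97 CPM with DMSO and to 5.77 and 7.14 CPM with SGSS05-NS. CD14 (log2 fold change 1.82) and COL1A2 (-2.24) did not pass the threshold. KMT5A, the gene of SETD8, had 54.6 and 56.8 CPM with DMSO and 82.8 and 82.9 CPM with SGSS05-NS (log2 fold change 0.57, SE 0.09, adjusted p = 0.00037).

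The first question was whether the cytosolic and the mitochondrial genes responded alike to the compound. They did not move as 1 block. Of the 20 cytosolic genes, TARS and GARS rose and none fell. Of the 16 mitochondrial genes none rose, and LARS2, NARS2, TARS2 and IARS2 fell. A gene was called at an adjusted p under 0.001 by the quasi-likelihood test of edgeR, adjusted over all genes tested by the Benjamini-Hochberg method, which is the study's own threshold. At it, 6.37% of all genes tested rose and 8.14% fell, against 10% and 0% of the cytosolic genes and 0% and 25% of the mitochondrial genes. With 2 libraries per condition these are small counts. At an unadjusted p under 0.05 in the same test, 26.5% of all genes tested were higher and 27.0% lower, against 5 and 6 of the 20 cytosolic genes and 1 and 7 of the 16 mitochondrial genes. Limma voom likewise called 0 cytosolic genes lower, whereas edgeR's likelihood ratio test and DESeq2 each called 2, DARS and LARS, and none of the 3 called a mitochondrial gene higher. The mitochondrial genes called lower were 4 with limma voom, 6 with the likelihood ratio test, which is the study's own, and 5 with DESeq2. RNA came from whole cultures, in which fewer cells of a type and less RNA per cell cannot be told apart, and CPM values are relative to all other RNA in the library.

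The log2 fold changes ranged from -0.43 to 0.64 among the cytosolic genes, with a median of 0.01, and from -1.09 to 0.42 among the mitochondrial genes, with a median of -0.15. The median over all genes tested was 0.01. The class medians differed by 0.17 on the log2 scale before rounding, a description to which no test was applied. At the looser threshold of 0.05, 22.6% of all genes tested were higher and 23.7% lower. The cytosolic genes were near this background in both directions, with 5 higher (25%) and 5 lower (25%). The mitochondrial genes had 1 higher (6.25%) and 7 lower (43.8%). Without any test, both SGSS05-NS libraries lay above both DMSO libraries in 8 of the 20 cytosolic genes and below them in 8, and in 1 and 7 of the 16 mitochondrial genes, where 37.8% of all genes tested lay above and 36.9% below.

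**Figure D1:**
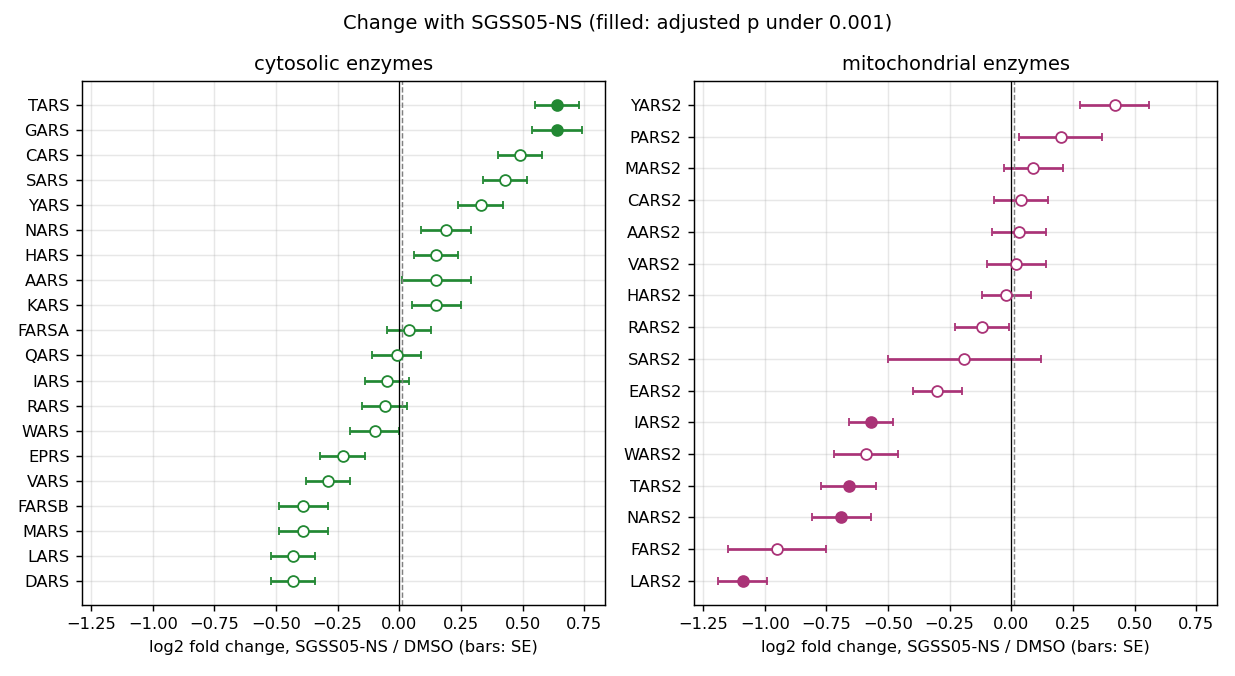
Log2 fold change (SGSS05-NS against DMSO, x axis) of each of the 20 cytosolic genes (left) and the 16 mitochondrial genes (right), ordered by size. Points are estimates from 2 libraries per condition, bars are standard errors, filled points passed the adjusted p of 0.001, and the dashed line is the median of all genes tested (0.01). TARS and GARS are the filled points on the right of 0 and IARS2, TARS2, NARS2 and LARS2 those on the left.

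The levels of the 2 classes were far apart before any treatment. To set genes side by side, CPM were divided by the length of the reference transcript in kb. On this scale the DMSO level was highest for KARS, the lysine enzyme of both compartments, at 150 CPM per kb, followed by QARS (glutamine) at 94.8 and GARS (glycine) at 91.2. The ranges of the DMSO libraries of QARS (94.8 to 94.9) and GARS (84.8 to 97.5) overlapped, as did those of most neighbours down to EPRS, which joins glutamate and proline, at 81.4. At the low end of the cytosolic class stood CARS (cysteine) at 21.6 and FARSB, the beta subunit of the phenylalanine enzyme, at 8.77. FARSA, the alpha subunit of the same enzyme, stood at 85.2, but the FARSB reference transcript is 6761 bases long against 1811 for FARSA and the value per kb depends on which transcript is taken. The mitochondrial class was led by IARS2 (isoleucine) at 64.7 and RARS2 (arginine) at 36.8, then HARS2 (histidine) at 21.2 and TARS2 (threonine) at 19.8. It ended with PARS2 (proline) at 4.12 and SARS2 (serine) at 1.03.

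Summed over the class, the level of the cytosolic genes was 1370 and 1380 CPM per kb with DMSO and 1470 and 1490 CPM per kb with SGSS05-NS. The mitochondrial genes summed to 246 and 240 CPM per kb with DMSO and to 193 and 203 CPM per kb with SGSS05-NS. Cytosolic over mitochondrial, the ratio was 5.57 and 5.75 with DMSO and 7.62 and 7.34 with SGSS05-NS. The 2 conditions did not overlap on any of these sums. As a share of all gene counts, the mitochondrial genes took 0.0731% and 0.0712% with DMSO and 0.0591% and 0.0576% with SGSS05-NS. The sums are governed by the abundant genes, IARS2 most of all in the mitochondrial class. The median level of the cytosolic genes moved against their sum, from 79.4 and 80.9 CPM per kb with DMSO to 68.6 in each SGSS05-NS library. For the mitochondrial genes the median went from 10.3 and 9.02 CPM per kb to 7.69 and 8.19. The higher cytosolic sum therefore does not describe the typical gene of that class.

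Among the cytosolic genes, TARS encodes the threonine enzyme and lies on the plus strand of chromosome 5 of GRCh37 (hg19), from 33440802 to 33468196 (ENSG00000113407.9). It had 213 and 215 CPM with DMSO and 317 and 350 CPM with SGSS05-NS, from 5034 to 8224 fragments per library. The increase was 1.56-fold (log2 fold change 0.64, SE 0.09, adjusted p = 0.00022). GARS, the glycine enzyme of both cytosol and mitochondrion, lies on the plus strand of chromosome 7 from 30620149 to 30673649 (ENSG00000106105.9). It had 207 and 238 CPM with DMSO and 350 and 344 CPM with SGSS05-NS (log2 fold change 0.64, SE 0.10, adjusted p = 0.0003). In both genes each SGSS05-NS library was above each DMSO library. GARS did not pass the threshold without DMSO replicate 1 (log2 fold change 0.54, adjusted p = 0.0013).

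A further 3 cytosolic genes were the next highest and did not pass the threshold of 0.001. CARS, the cysteine enzyme, had 56.9 and 61.2 CPM with DMSO and 84.7 and 80.7 with SGSS05-NS (log2 fold change 0.49, SE 0.09, adjusted p = 0.0014). SARS, the serine enzyme, had 159 and 158 CPM against 223 and 202 (0.43, SE 0.09, adjusted p = 0.0032). YARS, the tyrosine enzyme, had 132 and 129 CPM against 165 and 162 (0.33, SE 0.09, adjusted p = 0.011). The libraries of the 2 conditions did not overlap in any of the 3.

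At the other end of the class, 3 genes had the lowest values, also short of the threshold. DARS, the aspartate enzyme, had 127 and 121 CPM with DMSO and 87.9 and 95.8 with SGSS05-NS (log2 fold change -0.43, SE 0.09, adjusted p = 0.0029). LARS, the leucine enzyme, which also senses leucine for mTORC1, had 381 and 404 CPM against 282 and 300 (-0.43, SE 0.09, adjusted p = 0.0028). MARS, the methionine enzyme, had 194 and 212 CPM against 166 and 143 (-0.39, SE 0.10, adjusted p = 0.0083). Each of them was lower in both SGSS05-NS libraries than in both DMSO libraries. The other 12 cytosolic genes lay between -0.39 (FARSB) and 0.19 (NARS, asparagine). AARS, the alanine enzyme and a commonly named ATF4 target, was at 123 and 120 CPM with DMSO and at 161 and 110 CPM with SGSS05-NS, so that its treated libraries lay on either side of the controls. QARS (-0.01), FARSA (0.04), IARS (-0.05) and RARS (-0.06) had the values nearest to 0.

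The cytosolic enzymes can be divided by where they sit in the cell. DARS, EPRS, IARS, KARS, LARS, MARS, QARS and RARS are held together in the multi-tRNA synthetase complex. The other 12 lie outside that complex and are called free enzymes here, whatever other partners they may have. Of the 8 complex genes, 7 had a log2 fold change below 0, as did 8064 of all 16468 genes tested, and the median was -0.15. None was called at 0.001, where 8.14% of all genes tested fell, though the likelihood ratio test and DESeq2 called DARS and LARS. At an unadjusted p under 0.05, 4 of the 8 were lower and none was higher, where 27.0% of all genes tested were lower and 26.5% higher. At the threshold of 0.05, 3 of the 8 (37.5%) were lower and none was higher, with 22.6% and 23.7% of all genes tested higher and lower at it. The 12 free enzymes had a median of 0.17 and included both genes that rose (16.7%), where 6.37% of all genes tested rose. At the threshold of 0.05, 5 of the 12 (41.7%) were higher and 2 (16.7%) lower. The complex genes had a median genomic length of 57.1 kb and the free ones of 32.6 kb. Of the 3 scaffold proteins of the complex, AIMP1 had a log2 fold change of 0.21, AIMP2 of 0.05 and EEF1E1 (AIMP3) of -0.62 (7.37 and 10.7 CPM with DMSO, 5.59 and 6.12 with SGSS05-NS, adjusted p = 0.021), so that none was called.

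By catalytic fold, the 19 class I enzymes, which include LARS2 and IARS2, had a median log2 fold change of -0.10, with 0 called higher and 2 lower (10.5%). The 18 class II enzymes, which include TARS, GARS, TARS2 and NARS2, had a median of 0.04, with 2 called higher and 2 lower (11.1% each). The shares that fell are near the 8.14% of all genes tested. EPRS carries both folds in 1 chain and was counted in each.

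Among the mitochondrial genes, the largest decrease was that of LARS2, which charges mitochondrial leucine tRNA and lies on the plus strand of chromosome 3 of GRCh37 from 45430053 to 45596218 (ENSG00000011376.5). It had 54.6 and 57.1 CPM with DMSO and 27.1 and 25.3 CPM with SGSS05-NS, from 594 to 1369 fragments per library. It fell by 1.09 on the log2 scale (SE 0.10, adjusted p = 6.9e-06), to 0.469 of the DMSO level. The call held under each of the 15 alternative fits and thresholds tried.

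NARS2, the asparagine enzyme, lies on the minus strand of chromosome 11 from 78146666 to 78286239 (ENSG00000137513.5). It had 34.7 and 31.3 CPM with DMSO and 19 and 21.9 CPM with SGSS05-NS (log2 fold change -0.69, SE 0.12, adjusted p = 0.00064). TARS2, the threonine enzyme, lies on the plus strand of chromosome 1 from 150459890 to 150480078 (ENSG00000143374.10). It had 55.2 and 52.9 CPM with DMSO and 37.1 and 31.6 CPM with SGSS05-NS (log2 fold change -0.66, SE 0.11, adjusted p = 0.00043). IARS2, the isoleucine enzyme and the most abundant of the class, lies on the plus strand of chromosome 1 from 220267474 to 220321383 (ENSG00000067704.8). It had 230 and 227 CPM with DMSO and 159 and 150 CPM with SGSS05-NS (log2 fold change -0.57, SE 0.09, adjusted p = 0.00041). In all 4 genes that fell, both treated libraries were below both controls. NARS2 did not pass the threshold without SGSS05-NS replicate 1 (-0.60, adjusted p = 0.0012), nor TARS2 without SGSS05-NS replicate 2 (-0.54, adjusted p = 0.0011). With scaling by library size only, the adjusted p was 0.0012 for IARS2, 0.0013 for NARS2 and 0.0018 for TARS2, and LARS2 alone of the class was called.

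The lowest values short of the threshold in the quasi-likelihood test were those of FARS2, WARS2 and EARS2. FARS2, the phenylalanine enzyme, had 12.8 and 13.1 CPM with DMSO and 5.0 and 8.38 CPM with SGSS05-NS, on 111 to 320 fragments (log2 fold change -0.95, SE 0.20, adjusted p = 0.0025). Its treated libraries lay far apart, and the value ranged from -1.37 to -0.63 as each library was left out. FARS2 was called by the likelihood ratio test (adjusted p = 2.8e-05), by DESeq2 (0.00055) and in 3 of the 4 fits with a library left out, and WARS2 by the likelihood ratio test (0.00021) but not by DESeq2 (0.0065). WARS2, the tryptophan enzyme, had 14.5 and 15.2 CPM against 9.64 and 10.1 (-0.59, SE 0.13, adjusted p = 0.0035). EARS2, the glutamate enzyme, had 52.0 and 48.9 CPM against 40.6 and 41.5 (-0.30, SE 0.10, adjusted p = 0.024). The groups did not overlap in any of the 3.

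The highest values of the class belonged to YARS2, PARS2 and MARS2, none of them called. YARS2, the tyrosine enzyme, had 22.3 and 18.3 CPM with DMSO and 24.2 and 30.0 CPM with SGSS05-NS (log2 fold change 0.42, SE 0.14, adjusted p = 0.028). PARS2, the proline enzyme, had 11.2 and 8.18 CPM against 11.4 and 10.9 (0.20, SE 0.17, adjusted p = 0.35). MARS2, the methionine enzyme, had 22.0 and 18.5 CPM against 21.3 and 21.9 (0.09, SE 0.12, adjusted p = 0.57). The libraries overlapped in PARS2 and MARS2, and both had a value just below 0 (-0.03 and -0.04) without DMSO replicate 2. CARS2 (0.04), AARS2 (0.03), VARS2 (0.02), HARS2 (-0.02) and RARS2 (-0.12) had overlapping libraries as well. SARS2 had only 35, 60, 37 and 42 fragments (log2 fold change -0.19, SE 0.31). It overlaps an annotated gene on the same strand, ENSG00000269547, which had 0 counts in every library, and fragments within both genes are left uncounted, so the level of SARS2 may be too low.

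Setting each mitochondrial gene beside the cytosolic gene for the same amino acid gave 17 pairs, in which FARS2 and EPRS each appear 2 times. The log2 fold change was greater for the cytosolic gene in 13 pairs and for the mitochondrial gene in 4, and the median difference was 0.44. The difference exceeded 2 standard errors, combined from both genes as if they were independent, in 8 pairs in the cytosolic direction and in 3 in the other. The pairs were compared as descriptions, with no p-value. The threonine pair stood furthest apart, with a difference of 1.30 (SE 0.14) between TARS, which rose, and TARS2, which fell. The ratio of TARS to TARS2 in CPM per kb was 4.05 with DMSO and 9.92 with SGSS05-NS. The next were FARSA and FARS2 with 0.99 (SE 0.22), NARS and NARS2 with 0.88 (SE 0.15), and LARS and LARS2 with 0.66 (SE 0.14), where the value of both leucine genes was below 0.

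The opposite order was found for methionine (MARS minus MARS2, -0.49, SE 0.16), proline (EPRS minus PARS2, -0.43, SE 0.19) and valine (VARS minus VARS2, -0.31, SE 0.15). In these 3 pairs it was the cytosolic gene that had the negative value, and it did not pass the threshold of 0.001. The pairs for tyrosine (-0.09, SE 0.17), arginine (0.05, SE 0.14), glutamate (0.06, SE 0.13), alanine (0.12, SE 0.18) and histidine (0.16, SE 0.13) differed by less than 2 standard errors, as did serine (0.61, SE 0.32), where SARS2 had few fragments. Shared sequence between the genes was short. The longest identical run between the reference transcripts of any 2 members was 31 bases (AARS2 and TARS2), and it was 24 bases for HARS and HARS2, the adjacent histidine genes.

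Genomic length moved with these values. Over all 16042 tested genes with an annotated length, the correlation of log10 genomic length with the log2 fold change was -0.10 (Pearson) and -0.22 (Spearman). It was -0.72 by both measures over the 16 mitochondrial genes and -0.27 and -0.32 over the 20 cytosolic genes. These describe genes measured in the same 4 libraries, and carry no test. Of the 2833 genes longer than 100 kb, 27.8% fell and the median was -0.42. The 4 mitochondrial genes of that length, FARS2 (568 kb), LARS2 (166 kb), NARS2 (140 kb) and WARS2 (109 kb), all had a value below 0, with a median of -0.82, and no cytosolic gene was that long. IARS2 (53.9 kb) and TARS2 (20.2 kb) fell too and are shorter. Among the 3715 genes of 20 to 50 kb, where TARS2 lies, the median was 0.11 and 1.94% fell.

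After a smooth trend on genomic length across all genes was removed, the remaining log2 value was -0.75 for LARS2, -0.45 for NARS2, -0.94 for TARS2 and -0.65 for IARS2. For WARS2 it was -0.48, and for FARS2, by far the longest, it changed sign to 0.10. For TARS it was 0.40 and for GARS 0.56. The class medians were then -0.19 (cytosolic) and -0.31 (mitochondrial), relative to the fitted mean at the same length. That mean can lie above the typical gene. TARS2 moved from -0.66 to -0.94, whereas the median of all genes of 20 to 50 kb was 0.11. These values are therefore not distances from the median gene of the same length.

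The synthetases were then set beside the other targets of ATF4. The list of 34 genes, ATF4 itself among them, was written from general knowledge, with further targets added after their values were seen. Of these, 33 were tested, 19 rose (57.6%) and none fell, with a median log2 fold change of 0.69. At this threshold 6.37% of all genes tested rose. The likelihood ratio test called 21 of the 33 higher and 1 lower, and DESeq2 and limma voom each called 19 higher and 0 lower. At an unadjusted p under 0.05, 26 were higher and 2 lower, where 26.5% of all genes tested were higher and 27.0% lower. SESN2, an inhibitor of mTORC1, went from 7.33 and 6.51 CPM to 91.8 and 103 CPM (log2 fold change 3.82). DDIT3, the transcription factor CHOP, went from 2.75 and 2.82 CPM to 58.6 and 77.7 CPM (4.61). PPP1R15A (GADD34), a subunit of the phosphatase that restores eIF2alpha, went from 22.2 and 23.9 CPM to 167 and 214 CPM (3.05). In each of these 3 genes the lowest treated library was several times the highest control.

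The mRNA of ATF4 itself rose less, from 138 and 144 CPM to 213 and 243 CPM (log2 fold change 0.69, SE 0.10, adjusted p = 0.00017). Of the 7 genes for amino acid transporters or their subunits on the list, grouped after their values were seen, 5 rose: SLC7A11 (2.81), SLC3A2 (1.91), SLC7A5 (1.17), SLC1A5 (0.58) and SLC1A4 (0.57). SLC38A2 (0.42) and SLC7A1 (0.05) did not pass the threshold, at which 6.37% of all genes tested rose. A group formed after its values were seen gives no test of transporters as a set. Genes of serine and proline synthesis on the same list did not pass the threshold, such as PSAT1 (-0.01), PHGDH (0.27), PYCR1 (0.13) and PSPH (-0.47). ASNS, which makes asparagine, had 134 and 166 CPM against 203 and 235 (0.55, adjusted p = 0.0027).

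Of the 12 synthetases commonly named as ATF4 targets, all of them cytosolic, 2 rose (16.7%), TARS and GARS, none fell, and the median was 0.17. At the threshold of 0.05, 5 of the 12 (41.7%) were higher and 2 (16.7%), LARS and MARS, were lower. The other 8 cytosolic genes had a median of -0.04, with none called. The median of the 12 was above that of all genes tested (0.01) and below that of the 33 genes of the other list (0.69). Some members of that list were added after their values were seen, so its median depends in part on this choice. The order of the medians is a description and was not tested. That 0.69 is the value of ATF4 itself, and the next lower value on the list is that of SLC1A5 (0.58). The highest synthetases, TARS and GARS at 0.64, lie between these values.

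Promoter sequences were examined because ATF4, paired with a C/EBP protein, binds an 8-base composite element, TGATGCAA in its commonest form. The 300 bases around each annotated start were taken from RefSeq on GRCh38.p14, in which 30 of the 36 genes were matched. DARS, LARS, VARS, YARS, AARS2 and VARS2 had no entry. The letters TGATGNAA were searched on both strands. Some genes have more than 1 promoter in that table, and a gene was counted once if any of its promoters held the letters. They were present in 7 of 16 cytosolic genes (43.8%), in 1 of 14 mitochondrial genes (7.14%) and in 1217 of all 27305 genes (4.46%). Counted by promoter, they were in 7 of 21 cytosolic promoters (33.3%), 1 of 18 mitochondrial promoters (5.56%) and 1270 of all 35116 promoters (3.62%). The exact letters TGATGCAA, a subset of these matches, were present in 6 of the 16 cytosolic genes (37.5%), in 0 of the 14 mitochondrial ones and in 295 of all genes (1.08%), and by promoter in 28.6%, 0% and 0.866%. The 8 matches are given here with 11 bases on either side, because the share of genes with a match differed between the 2 classes, a difference that was not tested. Each is written 5′ to 3′ along its gene, with the 8 matching letters in capitals, so that a match on the opposite strand reads TTNCATCA.
TARS, chr5:33440956-33440985, plus strand: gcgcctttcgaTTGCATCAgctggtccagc
GARS, chr7:30594834-30594863, plus strand: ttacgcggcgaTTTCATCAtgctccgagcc
CARS, chr11:3057407-3057436, minus strand: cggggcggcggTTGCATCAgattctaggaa
NARS, chr18:57621804-57621833, minus strand: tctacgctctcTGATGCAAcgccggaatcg
AARS, chr16:70289675-70289704, minus strand: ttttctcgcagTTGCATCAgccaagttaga
IARS, chr9:92293692-92293721, minus strand: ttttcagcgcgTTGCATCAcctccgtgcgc
MARS, chr12:57488053-57488082, plus strand: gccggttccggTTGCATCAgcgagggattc
YARS2, chr12:32756076-32756105, minus strand: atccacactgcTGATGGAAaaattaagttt

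In 6 of the 8 genes the match lay close to the start: 33 bases before it in GARS, 13 in IARS, 4 in MARS and 2 in CARS, and 2 bases after it in TARS and 14 in NARS. In AARS it lay 187 bases before the start and in YARS2 197. The genes with a match ranged from -0.39 to 0.64 in log2 fold change. TARS and GARS, which rose, hold one, and so do CARS (log2 fold change 0.49), YARS2 (0.42), NARS (0.19) and AARS (0.15), but IARS (-0.05) and MARS (-0.39) hold the exact letters as well. SARS (0.43) has none in its window. A match in these letters is a description of the sequence, not evidence of binding.

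Few of the other genes of protein synthesis were called at the threshold of 0.001. None of 5 cytosolic elongation factors tested was called (median 0.17), with EEF1A2 at 0.49, EEF1D at 0.23 and EEF2 at 0.17. Of 18 genes of tRNA maturation and export none was called (median 0.06), with TSEN15 of the tRNA splicing endonuclease at -0.50, RPP14 of ribonuclease P at 0.39 and TRNT1, which adds the CCA end, at 0.41. EEF1G and RPP21 had 0 counts in every library and were not tested. Of 12 genes for the eIF2alpha kinases and their partners none rose and 2 fell, where 8.14% of all genes tested fell. EIF2AK4, which encodes GCN2, the sensor of uncharged tRNA, went from 83.9 and 84.3 CPM to 56.4 and 52.3 CPM (log2 fold change -0.63, SE 0.09, adjusted p = 0.00022). EIF2B3, a subunit of the exchange factor eIF2B, went from 31.4 and 30.2 CPM to 17.6 and 19.1 CPM (-0.75, SE 0.11, adjusted p = 0.00024). EIF2AK4 is 101 kb long and EIF2B3 136 kb. Another subunit, EIF2B2, had a value of 0.46 and was not called. At an unadjusted p under 0.05, where 26.5% of all genes tested were higher and 27.0% lower, 2 of the elongation factors were higher and none was lower. At that p, 5 genes of tRNA maturation were higher and 4 lower, and 2 genes of the eIF2alpha list were higher and 4 lower. The likelihood ratio test and DESeq2 each called 1 elongation factor higher, and the former also 1 gene of tRNA maturation lower and 1 gene of the eIF2alpha list higher, while limma voom called none of these.

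In the mitochondrial compartment, the synthetases were compared with the rest of the translation machinery. None of 4 partners of tRNA charging was called (median -0.09). Among them, GATC and GATB, subunits of 1 amidotransferase, had values of 0.50 and -0.43, and MTFMT, which formylates initiator tRNA, -0.14. None of 9 mitochondrial translation factors was called (median -0.11), with MTRF1L at 0.48, GFM1 at -0.35 and TSFM at -0.37. At an unadjusted p under 0.05, 1 partner was higher and 1 lower, and 1 translation factor was higher and 3 lower. At that p, 26.5% of all genes tested were higher and 27.0% lower. The likelihood ratio test called 1 gene of each of these lists higher, DESeq2 and limma voom none. Of 75 mitochondrial ribosomal proteins, 2 rose and 2 fell (2.67% each, median -0.10), whereas the likelihood ratio test called 5 higher and 4 lower, with MRPL18 at 0.93, MRPL24 at -0.86 and MRPL49 at 0.59 having the smallest p-values. The median of the mitochondrial synthetases (-0.15) was thus close to those of the other mitochondrial lists, whereas the share that fell was 25% (4 of 16), against 8.14% of all genes tested. The ribosomal protein genes are short, with a median genomic length of 11.1 kb against 32.7 kb for the mitochondrial synthetases.

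WARS, the tryptophan enzyme of the cytosol, is also known as a gene induced by interferon. It had 91.8 and 90.7 CPM with DMSO and 90.0 and 80.0 CPM with SGSS05-NS (log2 fold change -0.10, SE 0.10, adjusted p = 0.41). Of 10 interferon response genes 4 had enough counts to be tested. IRF1 rose, from 2.55 and 2.23 CPM to 18.7 CPM in both treated libraries (log2 fold change 2.96), while ISG15 (0.41) and IFIT1 (-0.97) were not called.

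The libraries keep the strand of each fragment, and fragments on the strand opposite to a gene were counted separately by the authors. Among 14 synthetase genes with enough such counts, MARS and CARS2 rose on the opposite strand, where 3.67% of the 7200 genes tested did. Opposite to MARS there were 31 and 28 fragments with DMSO and 519 and 776 with SGSS05-NS. The MARS gene overlaps DDIT3 and ARHGAP9 on the opposite strand, and these fragments are not part of the MARS values above.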

How the data were processed

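Total RNA of 4 cultures was sequenced as paired reads. Per the submitters' processing notes, the authors used Trimmomatic 0.30 for trimming and STAR 2.4.2a for alignment to hg19. The deposited values are raw fragment counts for each gene of GENCODE 19, neither normalized nor pooled. Fragments that map to several places or lie in 2 genes are not counted. Summary rows entered neither library sizes nor tests.

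Reverse-stranded counts were filtered (filterByExpr), scaled (TMM) and tested for SGSS05-NS against DMSO by the quasi-likelihood method of edgeR 4.0.16 in R 4.3.3, with p-values adjusted after Benjamini-Hochberg over 16468 genes. The standard error was the log2 fold change divided by the square root of F. Intervals and p-values rest on 2 libraries per condition. Gene positions and lengths came from GENCODE 44 on GRCh37. Of all gene rows, 2282 had no entry there. The code was tested on simulated counts.

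The members, gene lists and motif were chosen with earlier results of these data known, and the lists were written from general knowledge. All 36 genes may be named. In full were given those called, the 3 highest and 3 lowest others of each class, and the 3 smallest p-values of each other list. KMT5A was added by rule, and the opposite-strand counts, further ATF4 targets and TH after their values were seen. A result that the rule chose is not reported here. The alternatives tried were the likelihood ratio test, DESeq2 1.42.0, limma 3.58.1 (voom), other scalings, filters and thresholds, unstranded counts, a replicate block, each library left out, and a trend on length (mgcv 1.9.3).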

Additional observations from a re-analysis of the deposited data

Results flagged for a closer look

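Both results here come from the counts on the strand opposite to each gene, which lie outside the main measurement, and they were chosen after the data were seen. Opposite to MARS, fragments went from 31 and 28 with DMSO to 519 and 776 with SGSS05-NS (log2 fold change 4.23, SE 0.19, adjusted p = 3.1e-13, edgeR's quasi-likelihood test, adjusted by the Benjamini-Hochberg method over 7200 genes). They were 0.634% and 0.561% of the fragments of both strands at MARS with DMSO and 12.4% and 18.7% with SGSS05-NS. DDIT3, which overlaps MARS on that strand, had a log2 fold change of 4.61 in its own counts. Opposite to CARS2, fragments went from 20 and 24 to 63 and 103 (1.69, SE 0.29, adjusted p = 0.00011), and ING1 overlaps CARS2 there. Which gene these fragments came from was not tested.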

How the results depend on the processing

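TARS and LARS2 were called under each of the 15 alternatives, though at the looser thresholds of 0.01 and 0.05 no call could be lost. GARS lost its call in 1 of the 15 and IARS2 in 1, NARS2 and TARS2 in 2 each. With the likelihood ratio test and with DESeq2, 4 cytosolic genes were called higher and 2 lower, and 6 and 5 mitochondrial genes lower. Without a filter on low counts the cytosolic counts were 4 and 3 (mitochondrial ribosomal proteins 6 higher and 4 lower), at a threshold of 0.01 they were 4 and 4, and at 0.05 they were 5 and 5, with 1 mitochondrial gene higher and 7 lower. With scaling by library size only, 1 mitochondrial gene was called lower. Without regard to strand, the class medians were -0.02 (cytosolic) and -0.25 (mitochondrial), and with the length trend removed -0.19 and -0.31. The cause of these changes was not tested, beyond the looser thresholds themselves.

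Leaving out 1 library at a time assumes that the lone library of a condition varies like the others. The cytosolic genes called higher then ranged from 1 to 3 and lower from 0 to 1. Without DMSO replicate 1, 1 cytosolic gene, TARS, was called higher and 0 lower. Without SGSS05-NS replicate 1, 1 cytosolic gene, MARS, was called lower. The mitochondrial genes called lower ranged from 3 to 5, and 0 were called higher in each of these fits. The cytosolic median ranged from -0.02 to 0.02, the mitochondrial median from -0.25 to -0.06 and the difference of the medians from 0.06 to 0.24. The difference was smallest without DMSO replicate 2, where MARS2 and PARS2 changed sign. Over the 4 libraries left out, MARS2 ranged from -0.04 to 0.21 and PARS2 from -0.03 to 0.44.

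Deviations of same-numbered libraries correlated at 0.0526, and with only 2 pairs this cannot decide whether the replicate numbers pair the libraries. With the replicate number as a block, 3 cytosolic genes (CARS, GARS, TARS) were called higher and 6 mitochondrial genes (FARS2, IARS2, LARS2, NARS2, TARS2, WARS2) lower. Over all genes tested, 1759 were called higher and 2007 lower with the block, against 1049 and 1341 without it. Depth limits SARS2 most, followed by FARS2 and PARS2.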
